A study of Mus musculus with 2 samples.

Results

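The cells described here are Selp-high blood endothelial cells of mouse vein grafts, 524 of the 21983 cell barcodes that passed the quality limits, 359 in a library of conventional grafts and 165 in a library of No-Touch grafts. They were chosen by measured RNA: a barcode had at least 4 of the endothelial genes Pecam1, Cdh5, Tie1, Egfl7, Emcn and Ptprb, no UMI (unique molecular identifier, a tag that counts each captured RNA molecule once) of the lymphatic factor Prox1, under 1% of its UMIs from the collagen genes Col1a1, Col1a2 and Col3a1, at least 30 UMIs of Selp per 10000, no Gpihbp1 and fewer than 2 UMIs of Cytl1. Both groups are vein grafts of C57BL6/J mice aged 10 to 12 weeks, with no genotype, transgene or drug given for either, and the sources used here leave out the time after grafting. In No-Touch grafting the vein is moved with the tissue around it, while in the conventional procedure it is stripped of that tissue. Grafts were digested with enzymes, and live nucleated CD45-negative cells, that is cells without the common leukocyte antigen, were sorted and captured in droplets. Each group is 1 library, so every difference below compares these libraries, has no replicate check and carries no p-value. The sources used here do not say how many animals or grafts went into a library.

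Endothelial cells of small veins and venules are the main gate through which leukocytes leave the blood. They store P-selectin, the product of Selp, together with von Willebrand factor in Weibel-Palade bodies, and release it to the surface within minutes of a stimulus, where it lets leukocytes roll. E-selectin (Sele) is made anew after inflammatory signals, and the integrin ligands ICAM-1 and VCAM-1 then hold the rolling cell. The chemokine receptor ACKR1 carries chemokines across venules, and the nuclear receptor NR2F2 (COUP-TFII) maintains venous identity.

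The 2 libraries differed in depth and make-up, which touches all comparisons between them. The median Selp-high barcode held 12642 UMIs and 3497 genes in the conventional and 20424 UMIs and 4715 genes in the No-Touch library, from ranges of 1779 to 36046 and 3099 to 66832 UMIs. The median mitochondrial share was 2.5% and 2.14%. The libraries shared 22 barcodes, 0 of them Selp-high. Xist, the RNA of the inactive X chromosome, was at 286 and 0 CPM in Selp-high cells. In the conventional library 203 of the 359 cells had a Y-linked UMI and no Xist, 87 had Xist and no Y-linked UMI, 36 had both and 33 neither. In the No-Touch library these numbers were 159, 0, 0 and 6. Cells with Xist were therefore found in 1 of the 2 groups. Values from cells with Y-linked UMIs and no Xist are given below for Csf3. Of 57 genes recomputed from these cells alone, the ratios of 17 were counted as moved. Levels are given as CPM, counts per 1000000, that is a gene's share of all UMIs summed over the Selp-high cells of a library. Their intervals are exact 95% intervals that cover counting error only, and log2 ratios are of CPM + 1, No-Touch over conventional.

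The label held for most markers of venules. Ackr1 stood at 496 and 656 CPM in Selp-high cells of the conventional and No-Touch library, against 168 and 102 CPM in the other blood endothelial cells and 19.5 and 17.2 CPM in cells with at least 2 UMIs of the capillary gene Gpihbp1. Nr2f2 was at 192 and 334 CPM, against 123 and 115 CPM, and Vwf at 475 and 406 CPM, against 195 and 214 CPM. Lrg1, a glycoprotein of activated venules, was at 1303 and 1482 CPM, against 673 and 375 CPM. Ephb4, a receptor of venous endothelium, was less selective, with 51.3 and 108 CPM against 53.7 and 65.9 CPM. Nr2f2 did not set these cells apart from lymphatic endothelial cells, where it stood at 269.9 and 359 CPM. Because the cells were selected on the same counts, these values describe them and test nothing.

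**Figure D1:**
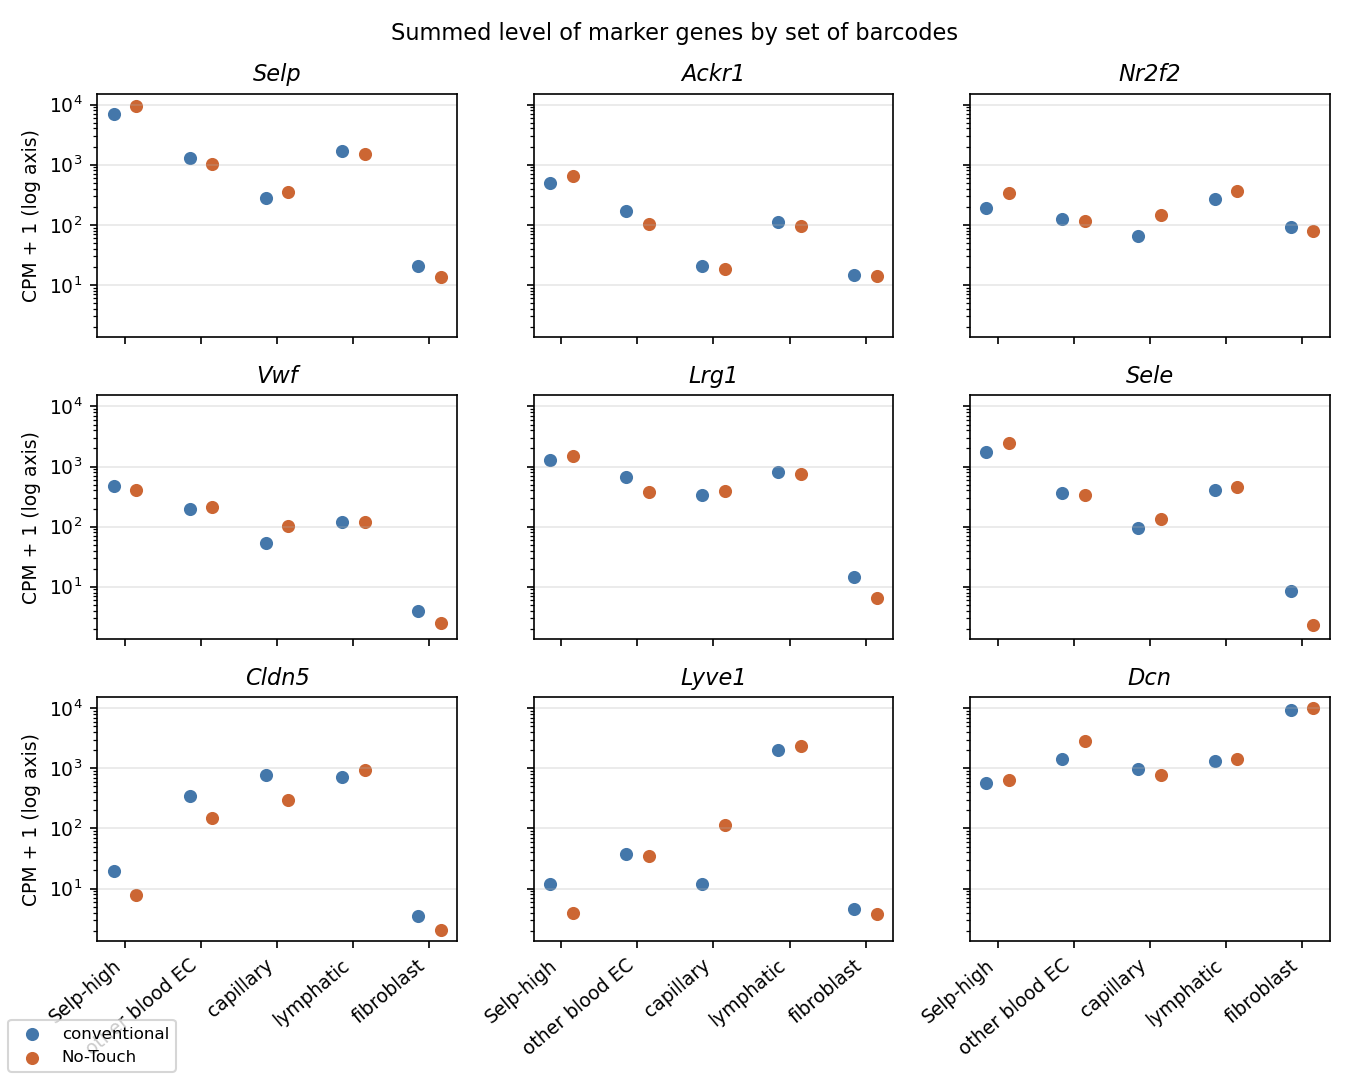
Summed level (CPM + 1, log axis) of 9 marker genes in Selp-high cells, other blood endothelial cells (EC), capillary cells, lymphatic cells and fibroblasts, 1 point per library. Ackr1 and Sele were highest in the Selp-high cells in both libraries, while Nr2f2 was at least as high in lymphatic cells and Cldn5 was at 18.6 and 6.85 CPM in Selp-high cells.

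Macrophage markers and most platelet genes were at or near 0, while all fibroblast markers and some mural markers were present. The 13 platelet and megakaryocyte genes summed to 112 and 107 CPM, against 83.6 and 83.5 CPM in other blood endothelial cells. Of these, the platelet genes Gp9, Gp1ba, Gp5, Gp6, Treml1 and Tubb1 were at 0 in both libraries, although platelets also carry P-selectin, and Pf4 was at 4.39 and 8.84 CPM. The 3 measured at 10 CPM or more were Itgb3 at 38.9 and 24.5 CPM, Itga2b at 22.4 and 30.5 CPM and Nrgn at 44.6 and 41.9 CPM, and the last 2 were at least 1.5 times higher than in other blood endothelial cells in both libraries. Their part in the Selp values was not tested. The 10 macrophage markers summed to 14.02 and 14.5 CPM and the leukocyte gene Ptprc was at 1.67 and 3.99 CPM. The 10 fibroblast markers summed to 1992 and 2862 CPM, against 3969 and 6113 CPM in other blood endothelial cells, and all were measured. Mural markers summed to 320.3 and 335 CPM and lymphatic markers to 62.8 and 55.6 CPM, with Prox1 at 0 by the rule. Pth, parathyroid hormone, was at 208 and 16.3 CPM in these endothelial cells, while Gcm2, the parathyroid transcription factor, was at 0. The high endothelial venule gene Madcam1 was at 0 and 0.5705 CPM, and Glycam1, another gene of such venules, at 21.1 and 41.1 CPM.

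Selp itself, at chromosome 1, 164115264 to 164150026 on mm10, stood at 7063 CPM (6988 to 7138) in conventional and 9499 CPM (9397 to 9601) in No-Touch Selp-high cells. Per cell, the median was 65.6 per 10000 UMIs (30.1 to 217) and 91.5 (30.7 to 206). The limit of 30 did not fall in a gap. In the conventional library 45 cells of the blood endothelial gate lay just below it, from 20 to under 30, and 56 just above, up to 40, and in the No-Touch library 11 and 11. Just outside, Ackr1 was at 360.3 and 392 CPM and Sele at 722 and 729 CPM, and just inside Ackr1 was at 403 and 395 CPM and Sele at 1065 and 888 CPM. Cells on either side of the limit thus had near values of Ackr1, and the limit cuts a continuous range.

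The Prox1 limit removed further cells that otherwise met every condition, 72 conventional and 39 No-Touch ones. Of these, 53 and 25 held exactly 1 Prox1 UMI. Their Selp was at 6699 and 8462 CPM, Ackr1 at 418 and 486 CPM and Vwf at 409 and 517 CPM. Lyve1, a receptor of lymphatic endothelium, was at 27.7 and 9.54 CPM in them, against 2998 and 2902 CPM in endothelial cells with at least 3 Prox1 UMIs. Ccl21a, the chemokine of lymphatic vessels, was at 19.6 and 26.2 CPM, against 12232 and 20269 CPM. Their Selp is no sign of likeness, since they had to meet the Selp limit. In the Selp-high cells that were kept, Lyve1 was lower, at 11.1 and 2.85 CPM, and Ccl21a was at 23.6 and 22.2 CPM. Ackr1 was at 496 and 656 CPM in the kept cells and Vwf at 475 and 406 CPM. By Lyve1 and Ccl21a the removed cells were nearer to the kept cells than to those with at least 3 Prox1 UMIs. With the removed cells the numbers would be 431 and 204.

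Selp-high cells made up 46.8% (43.2 to 50.4; 359 of 767) of conventional blood endothelial cells and 44.2% (39.1 to 49.4; 165 of 373) of No-Touch ones, with intervals that overlap. The order of the libraries depended on the limits: with Selp of at least 50 per 10000 the shares were 33.2% and 38.6%, with collagen under 0.2% they were 50.9% and 53.0%, and with Selp of at least 20 they were 52.7% and 47.2%. With every cell thinned to 5000 UMIs before the rule, the shares were 54.5% (50.8 to 58.1) and 50.8% (45.7 to 55.8). Among all barcodes that passed the quality limits, the share was 3.43% (3.09 to 3.80) and 1.43% (1.22 to 1.67), and the whole blood endothelial gate was 7.33% and 3.24%. The other blood endothelial cells differed more in kind: capillary cells were 16.3% and 8.31% of the gate, and cells with at least 2 Cytl1 UMIs 1.04% and 15.5%. The sort and the depth of a library can set such shares, and their part in them was not tested.

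Selp and Sele are neighbours on chromosome 1, and their levels went together from cell to cell, with values given further below. The 250 bases before each start site, from RefSeq on GRCm38.p6, + strand, are printed for these 2 genes, since they are the selectins on which the description turns. They lie at chr1:164115014-164115263 and chr1:164047984-164048233. Capitals mark TGANTCA, a loose form of the letters of an AP-1 element in which N is any base. The match is TGATTCA in Selp and TGACTCA in Sele. In Sele they also mark TTCNNNGAA, the letters of a STAT element. Both were searched on both strands.
Selp: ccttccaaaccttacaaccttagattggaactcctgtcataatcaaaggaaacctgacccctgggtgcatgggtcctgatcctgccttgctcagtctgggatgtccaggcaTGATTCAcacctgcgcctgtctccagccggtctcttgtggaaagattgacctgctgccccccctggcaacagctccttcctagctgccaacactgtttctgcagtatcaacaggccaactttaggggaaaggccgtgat
Sele: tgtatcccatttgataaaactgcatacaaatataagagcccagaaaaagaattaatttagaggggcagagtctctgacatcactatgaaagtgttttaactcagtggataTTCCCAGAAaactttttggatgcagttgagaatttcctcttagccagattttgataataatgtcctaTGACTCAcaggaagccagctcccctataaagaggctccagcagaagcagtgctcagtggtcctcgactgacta
TGANTCA occurs 1 time in each, its first base 139 bases before the start in Selp and 73 before it in Sele, and 6.75% of the 32851 promoters hold it. TTCNNNGAA occurs 1 time in Sele, in 7.02% of promoters. A match describes these letters and is neither a site nor a cause.

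Against the other blood endothelial cells of the same library, the genes with the highest ratios were Sele and Csf3. Sele, at chromosome 1, 164048234 to 164057677, was 4.73 and 7.46 times higher (1719.8 and 2473 CPM against 364 and 331 CPM). Csf3, the growth factor of neutrophils (G-CSF), was 4.51 and 20.6 times higher (1120.1 and 359.7 CPM against 248 and 17.4 CPM). Of the 3271 genes of at least 50 CPM tested in both libraries, 54 (1.65%) were 2 or more times higher in both and 69 (2.11%) were lower by as much. These genes come from the same counts as the rule and are a description.

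Among the 12 genes highest over the other cells, several are receptors or signalling proteins. Tnfrsf11a, the receptor RANK, stood at 138 and 103 CPM, against 32.1 and 15.04 CPM. Insr, the insulin receptor, was at 453 and 542 CPM, against 155 and 99.6 CPM. Cd14, the co-receptor for bacterial lipopolysaccharide, was at 205 and 238 CPM, against 66.8 and 21.4 CPM. Macrophage markers were near 0 in the same cells, and the part of macrophage or free RNA in the Cd14 values was not tested. Rcan1, a regulator of calcineurin, was at 759.5 and 946 CPM, against 256 and 253 CPM, and Mctp1, a calcium-binding membrane protein, at 296 and 473 CPM, against 99.6 and 77.6 CPM. Rasgef1a, an exchange factor for Ras-family GTPases, was at 183 and 161 CPM, against 40.2 and 15.04 CPM. Ctnnal1 was 3.68 and 3.795 times higher, Cmah 3.096 and 7.27 times and the protease inhibitor Serpinb1a 3.54 and 2.84 times. Each of these was higher in the Selp-high cells of both libraries.

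The 8 genes lowest against the other cells had varied roles. Id1, a target of BMP signalling, was at 22.2 and 41.1 CPM, against 143 and 223 CPM. Cxcl12, the chemokine of arterial and stromal cells, was at 90.2 and 87.6 CPM, against 287 and 407 CPM, and Pdgfb, which recruits pericytes, at 71.1 and 57.6 CPM, against 183 and 148 CPM. Igfbp3, Sdc4, Cyba, Slc9a3r2 and Fscn1 were also at 0.178 to 0.418 of the level in the other cells in both libraries. Of 15 arterial genes measured, 0 were 1.5 or more times higher in both libraries and 9 were lower by as much, among them Gja4, a connexin of arteries, at 5.86 and 1.997 CPM against 67.2 and 123 CPM. Over all 8338 genes of at least 10 CPM, 4.03% were at least 1.5 times higher in both libraries and 9.23% lower.

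Gene lists by function are described next, by how many members differed at least 1.5 times in both libraries. Of 15 venous genes, 10 were at least 1.5 times higher in both libraries, including the prostaglandin transporter Slco2a1 (371 and 657 CPM against 163 and 189 CPM). Of 17 adhesion genes, 4 were higher, Selp, which the rule fixed, Sele, Icam1 and Vcam1. The 3 lower ones were Icam2 (63.8 and 77.6 CPM against 109 and 153 CPM), Jam3 and Cd44, and the median log2 ratio over the list was 0.15 and 0.12. Of 18 receptors for inflammatory signals, 7 were higher and 0 lower. They were Il1r1, Tlr2, Tlr4, the histamine receptor Hrh1 (82.4 and 45.1 CPM against 21.8 and 5.15 CPM) and 3 of the interleukin-6 family, Il6st, Lifr and Osmr. Il6st, the shared signalling chain gp130, stood at 1392 and 1359 CPM, against 525 and 637 CPM. Of 16 genes of NF-kappaB and its feedback, 6 were higher, Nfkbia, Nfkbiz, Tnfaip3, Tnip1, Bcl3 and Traf1. Matrix genes went the other way, with 0 of 27 higher and 13 lower, and so did tip cell genes, with 0 higher and 9 of 18 lower. Of 10 fibroblast markers 0 were higher and 6 lower, and of 7 mural markers 0 were higher and 5 lower. The part of fibroblast or mural RNA in the matrix counts was not tested. Genes of interferon response and antigen presentation had 0 of 23 and 0 of 19 higher in both libraries.

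Cldn5, the main claudin of tight junctions, was among the lowest junction genes, at 18.6 and 6.85 CPM, against 340.4 and 147 CPM in the other blood endothelial cells and 768 and 299.7 CPM in capillary cells. With cells thinned to 5000 UMIs it was found in 5.31% (3.18 to 8.26) and 3.66% (1.35 to 7.79) of Selp-high cells, against 1.21% and 0.612% of fibroblasts, which lack the gene and serve as a background for free RNA in the droplets. Shares of fibroblasts below are thinned in the same way, from median depths of 17311 and 28386 UMIs before thinning. The unthinned shares were 9.47% and 7.27%. Cdh5, the cadherin of adherens junctions that was used by the rule, was at 644 and 718 CPM, against 649.7 and 620.4 CPM.

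Some hormones and receptors outside the named set were chosen after their values were seen. Fgf23, a phosphate-regulating hormone of bone, was at 194 CPM (181 to 206) in conventional and 87.00 CPM (77.5 to 97.3) in No-Touch Selp-high cells, against 26.6 and 38.4 CPM in the other blood endothelial cells and 4.29 and 4.37 CPM in fibroblasts. It was found in 27.7% (23.03 to 32.8) and 16.5% (11.1 to 23.04) of thinned cells, and 36.5% and 24.2% unthinned, against 1.41% and 1.29% of fibroblasts. Lepr, the leptin receptor, was at 101 and 161 CPM, against 40.4 and 44.9 CPM, and Csf2rb2, a receptor chain for interleukin-3, at 259.7 and 298 CPM, against 92.4 and 55.8 CPM.

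Within the Selp-high cells, the level of Selp went with that of a few other genes. Over cells thinned to 5000 UMIs, 339 conventional and 164 No-Touch, Spearman's rho of Selp with Sele was 0.30 and 0.46, with Icam1 0.23 and 0.34, with the GTPase Rnd1 0.29 and 0.33, with Insr 0.20 and 0.26 and with Csf3 0.21 and 0.18. With Ackr1 it was 0.11 and 0.10. Cells of 1 library share its preparation, so these values are descriptions. In 3 ranges of Selp (30 to under 50, 50 to under 100 and 100 or more per 10000) Sele was at 1388, 1746 and 2247 CPM in the conventional and 1232, 2059 and 3333 CPM in the No-Touch library. Csf3 was at 744, 1211 and 1539 CPM and 37.8, 352 and 473 CPM. Fos, an immediate early transcription factor, went the other way, at 490.1, 452 and 305 CPM and 2592, 2229.9 and 1655 CPM. The pan-endothelial Pecam1 stayed near its level, at 986, 1033 and 1027 CPM and 956, 1037 and 1024 CPM.

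**Figure D2:**
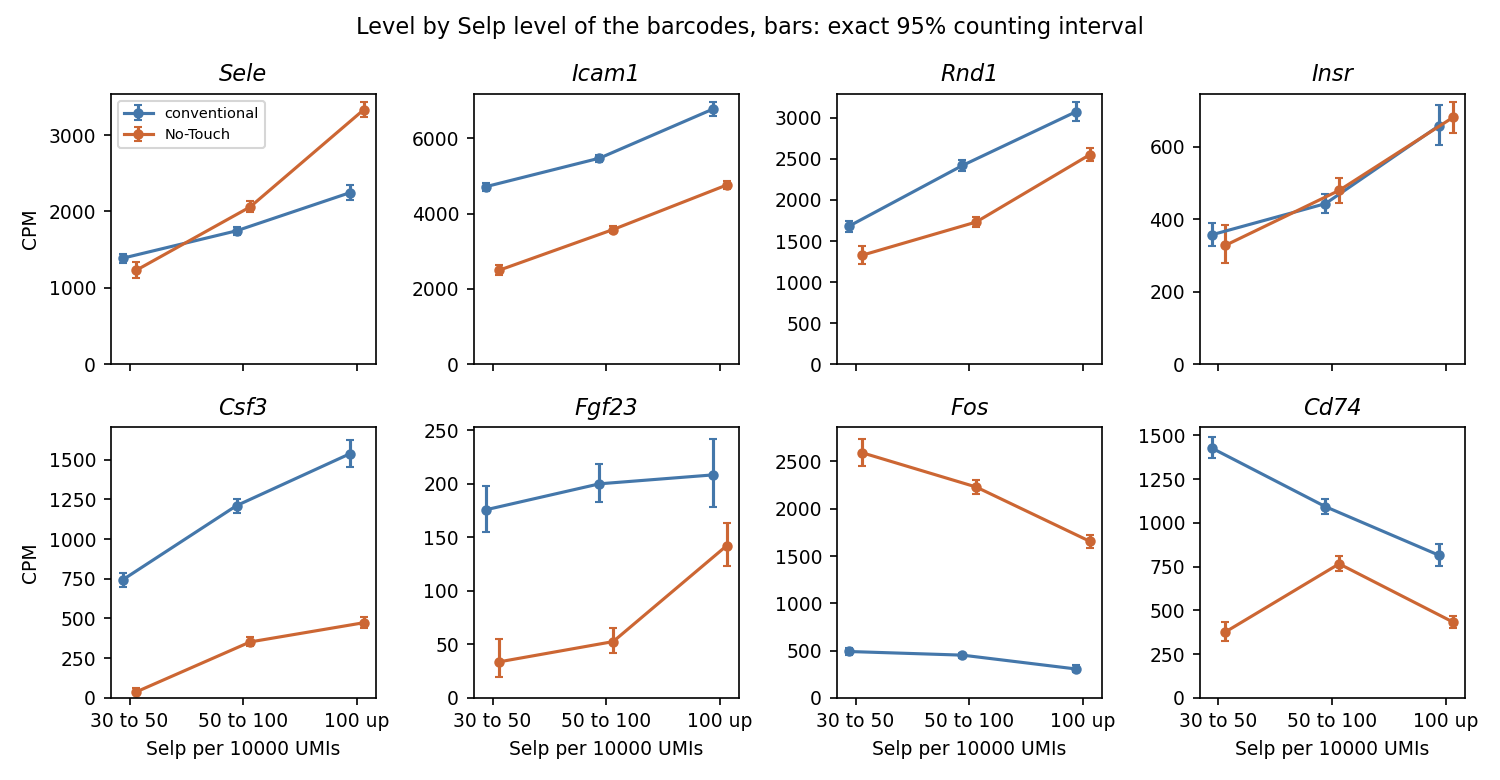
Level (CPM) of 8 genes in Selp-high cells grouped by their Selp level (UMIs per 10000), for each library, with exact 95% counting intervals. Sele, Icam1, Rnd1 and Insr were higher in each higher range in both libraries and Fos was lower, while Icam1 and Csf3 were lower in No-Touch cells in each range and Fos higher.

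Genes of antigen presentation also varied from cell to cell. Cd74, the invariant chain of MHC class II, went with the class II gene H2-Ab1 from cell to cell, with rho of 0.76 and 0.70 in the conventional and No-Touch library. The chemokine Cxcl9, a target of interferon-gamma, went with Cxcl10 (0.61 and 0.41) and with Cd74 (0.49 and 0.53), and its rho with Selp was -0.02 and 0.04. Over the 3 ranges of Selp, Cd74 was at 1428, 1093 and 814 CPM in conventional cells, lower in each higher range, and at 376, 766 and 433 CPM in No-Touch cells, with no one direction. B2m, the class I light chain, was among the genes with the lowest rho with Selp, -0.17 and -0.15. Cd74 was found in 61.4% (55.9 to 66.6) and 46.95% (39.1 to 54.9) of thinned cells and 68.2% and 55.2% of all, against 17.7% and 11.1% of fibroblasts. Macrophage markers in the same cells were near 0, as given above, and the part of macrophage or free RNA in the Cd74 values was not tested.

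Between the libraries, 62 of 3448 genes of at least 50 CPM (1.80%) were 2 or more times higher, and 53 (1.54%) were lower by as much, in No-Touch than in conventional Selp-high cells. The genes highest in No-Touch cells included the transcription factor Sox18 and the sterol hydroxylase Ch25h. Those lowest included Csf3 and Tnip1, which restrains NF-kappaB signalling. The 53.9% of calls that were higher depends on the scaling: under TMM or median-of-ratios scaling, which shift the median log2 ratio over these genes from 0.02 to -0.12, 39 were higher and 84 lower, so 31.7% were higher. Over 8354 genes of at least 10 CPM, 11.6% were 1.5 or more times higher and 6.18% lower. Their median log2 ratio was 0.08. These shares are the background for each count of list members between the libraries below.

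**Figure D3:**
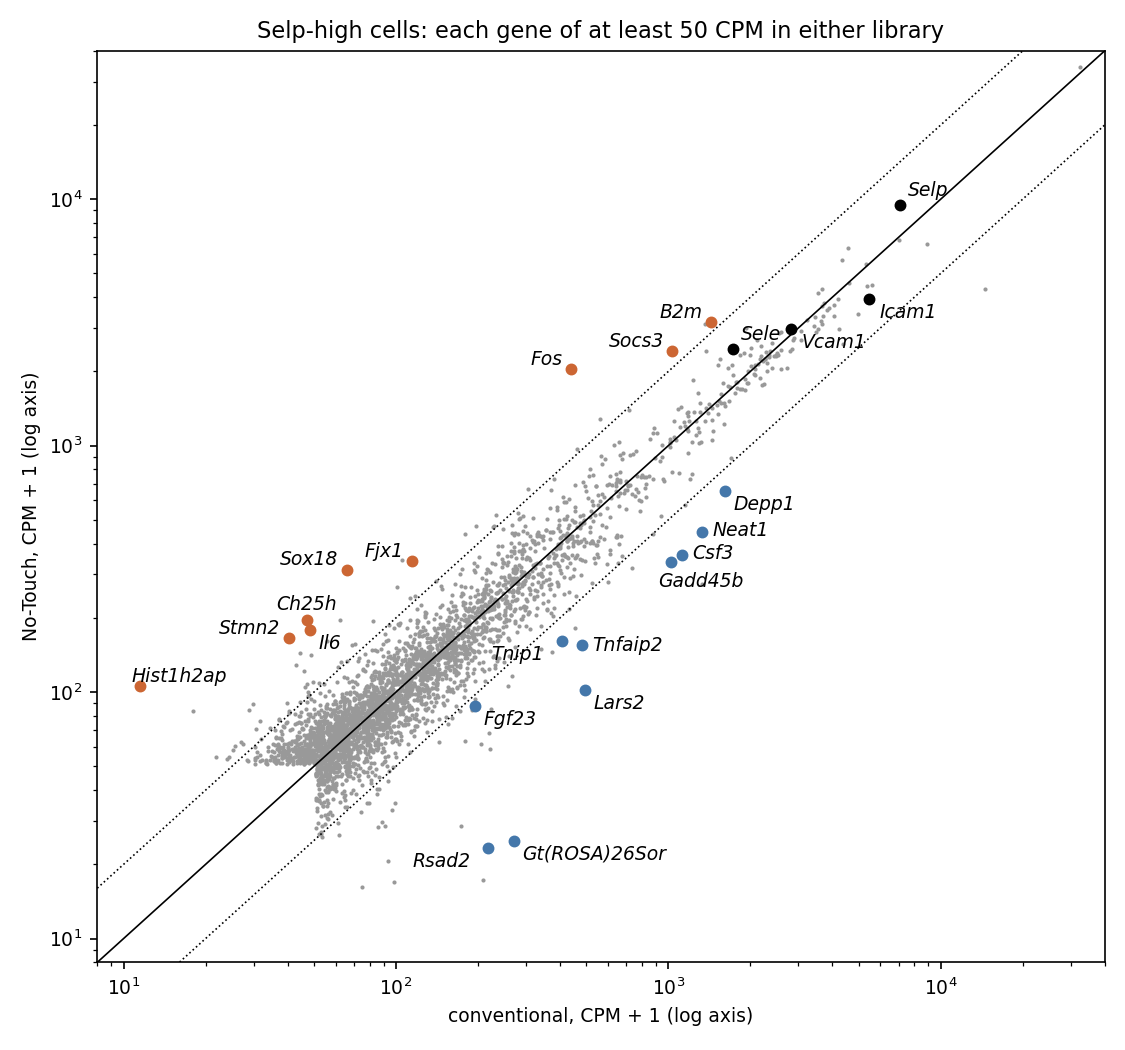
Level of each gene of at least 50 CPM in Selp-high cells (CPM + 1, log axes), conventional against No-Touch library, with the line of equality and dotted lines at 2 times higher and lower. Orange names are among those higher in No-Touch, blue among those lower and black names are adhesion molecules, which lie within 2 times of equality.

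Sox18, a transcription factor of endothelial differentiation at chromosome 2, 181669836 to 181671640, was at 64.9 CPM (57.8 to 72.5) in conventional and 313 CPM (295 to 332) in No-Touch cells, 4.83 (4.25 to 5.49) times higher. It was found in 24.5% of the thinned conventional and 68.3% of the thinned No-Touch cells, 44.3% and 91.5% before it, against 0.273% and 0.656% of fibroblasts. The other blood endothelial cells held 75.2 and 218 CPM, so that the gene was also higher in No-Touch cells there. Sox17 and Sox7, its relatives, were at 83.5 and 81.6 CPM and at 209 and 199 CPM. Of 24 endothelial transcription factors, 3 were at least 1.5 times higher in No-Touch cells, Sox18, Nr2f2 (log2 ratio 0.79) and Hhex (0.86), and 2 lower, Gata6 (-1.19) and Nr2f1 (-0.63), with a median of 0.06.

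Ch25h, the enzyme that makes 25-hydroxycholesterol, stood at 46.03 CPM (40.2 to 52.5) in conventional and 195 CPM (180.5 to 210.0) in No-Touch cells. It was found in 14.2% (10.6 to 18.3) and 39.6% (32.1 to 47.6) of thinned cells, 25.1% and 60.6% unthinned, against 1.71% and 1.702% of fibroblasts. Stmn2, a microtubule regulator best known from neurons, was at 39.3 CPM (33.9 to 45.4) and 165 CPM (152 to 179), and Fjx1, a secreted regulator of growth, at 114 CPM (104 to 124) and 339 CPM (320.4 to 359). Mcam, the adhesion molecule CD146, was at 54.6 and 160.3 CPM, and Snhg6, a host of small nucleolar RNAs, at 43.3 and 143 CPM. All of these were higher in No-Touch cells under each of the 14 alternatives run. For Fjx1 the other blood endothelial cells held 42.8 and 67.5 CPM and capillary cells 9.27 and 11.5 CPM.

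Most adhesion molecules, like most genes, lay within 1.5 times of equality between the libraries. Of 16 adhesion genes measured, 2 were at least 1.5 times higher in No-Touch cells, Cd34 and Glycam1, and 1, Alcam, lower. Over all genes of at least 10 CPM, 11.6% were higher and 6.18% lower. A single barcode held 22 of the 101 conventional and 50 of the 144 No-Touch Glycam1 UMIs. Sele was at 1719.8 CPM (1683 to 1757) in conventional and 2473 CPM (2421 to 2526) in No-Touch cells. Vcam1 was at 2810.1 CPM (2763 to 2858) and 2961 CPM (2904 to 3018), and its log2 ratio of 0.08 turned to -0.05 under TMM scaling. Icam1 was lower, at 5458 CPM (5392 to 5525) and 3920.2 CPM (3855 to 3986), a ratio of 0.718 (0.703 to 0.733). Cd34, a sialomucin that can present selectin ligands, was at 196 and 473 CPM. The median log2 ratio of the list was 0.20, and TMM scaling gave 2 higher and 2 lower.

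In the Weibel-Palade body list, 0 of 14 members were higher and 1 lower, where 11.6% and 6.18% of all genes were. The lower member was Angpt2, a stored antagonist of the receptor Tie2, at 96.04 CPM (87.5 to 105) and 32.2 CPM (26.6 to 38.8). Vwf was at 475 CPM (455 to 495) and 406 CPM (385 to 428), and the stored tissue plasminogen activator gene Plat at 41.2 and 46.5 CPM. Rab27a, a GTPase of these granules, was at 24.7 and 33.9 CPM, against 12.01 and 10.3 CPM in the other blood endothelial cells.

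Cytokines and chemokines went in both directions. Csf3, at chromosome 11, 98701263 to 98703629, was 1120.1 CPM (1090.3 to 1150.5) in conventional and 359.7 CPM (340.1 to 380.1) in No-Touch cells, a ratio of 0.321 (0.302 to 0.342). It was found in 70.2% (65.03 to 75.03) and 31.1% (24.1 to 38.8) of thinned cells, 78.3% and 44.2% unthinned, against 9.24% and 1.59% of fibroblasts. Within the conventional library it was at 831 CPM in the 203 cells with Y-linked UMIs and no Xist and 1763 CPM in the 87 with Xist and no Y-linked UMI. Against the No-Touch cells of the first kind (369 CPM) the log2 ratio was -1.17, in place of -1.64. Csf1, the growth factor of macrophages, was at 675 and 355 CPM. Il6, interleukin-6, was the other way, at 47.5 CPM (41.5 to 54.1) and 177 CPM (163 to 191), and was found in 15.9% (12.2 to 20.3) and 46.95% (39.1 to 54.9) of thinned cells, 34.5% and 81.2% unthinned. Fibroblasts held Il6 at 111 and 286 CPM and in 30.7% and 47.6% of thinned cells, no less than in the Selp-high cells. Single thinned fibroblasts held up to 18 and 41 Il6 UMIs, so their share is no measure of free RNA alone. The part of free RNA in the Il6 of Selp-high cells was not tested. Of the 8 cytokines measured, 1 was higher and 3 were lower.

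Of 17 chemokines and their receptors, 5 were higher in No-Touch cells and 4 lower, with a median of -0.04. Cxcl1, which attracts neutrophils, had 3719 CPM (3665 to 3774) in conventional and 3776 CPM (3712 to 3841) in No-Touch cells, while its relative Cxcl2 was lower, at 737 CPM (713 to 762) and 318 CPM (299 to 337). The monocyte chemokines Ccl2 and Ccl7 were higher, at 266 and 440.1 CPM and at 200.5 and 352 CPM, and stood at 3182 and 3892 CPM and at 2368 and 2962 CPM in fibroblasts, whose part in these values was not tested. Cx3cl1, a membrane-bound chemokine, was at 47.9 and 25.1 CPM. Among 18 receptors, Il1r1, the interleukin-1 receptor, was at 92.9 CPM (84.5 to 102) and 186 CPM (172 to 201), and 3 were higher and 3 lower. Socs3, the feedback inhibitor of interleukin-6 signalling, was at 1033 CPM (1004 to 1062) and 2409 CPM (2358 to 2461).

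Genes of NF-kappaB and its feedback leaned lower in No-Touch cells. Of 16 measured, 0 reached 1.5 times higher and 6 lower. Their median log2 ratio was -0.50, against 0.08 over all genes. Over the alternatives this median ran from -0.62 to -0.46. Tnfaip2, a gene induced by tumour necrosis factor, was at 482 CPM (462 to 502) and 154 CPM (142 to 168), and was found in 81.1% and 48.8% of thinned Selp-high cells (94.99% and 85.5% unthinned) and 91.6% and 78.9% of thinned fibroblasts. Tnip1, which binds the inhibitor A20, was at 405 CPM (387 to 424) and 159 CPM (146 to 173), and Traf1 at 379 and 218 CPM. Nfkbia, the inhibitor IkappaB-alpha, was at 8904 CPM (8820.1 to 8989) and 6602 CPM (6517 to 6687). Under TMM scaling 9 were lower and 0 higher. Tnfaip3, which encodes A20 itself, was higher by less than 1.5 times, at 509.7 CPM (489.7 to 530.4) and 752 CPM (723 to 781). Gadd45b, a stress gene and NF-kappaB target outside the list, was at 1019.8 CPM (991 to 1049) and 337 CPM (318 to 356), and Bcl2l11, the pro-apoptotic BIM, at 179 and 62.5 CPM. In the other blood endothelial cells Tnip1 was at 261 and 81.2 CPM and Gadd45b at 1106 and 532 CPM, so these differences were found outside the Selp-high cells too.

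**Figure D4:**
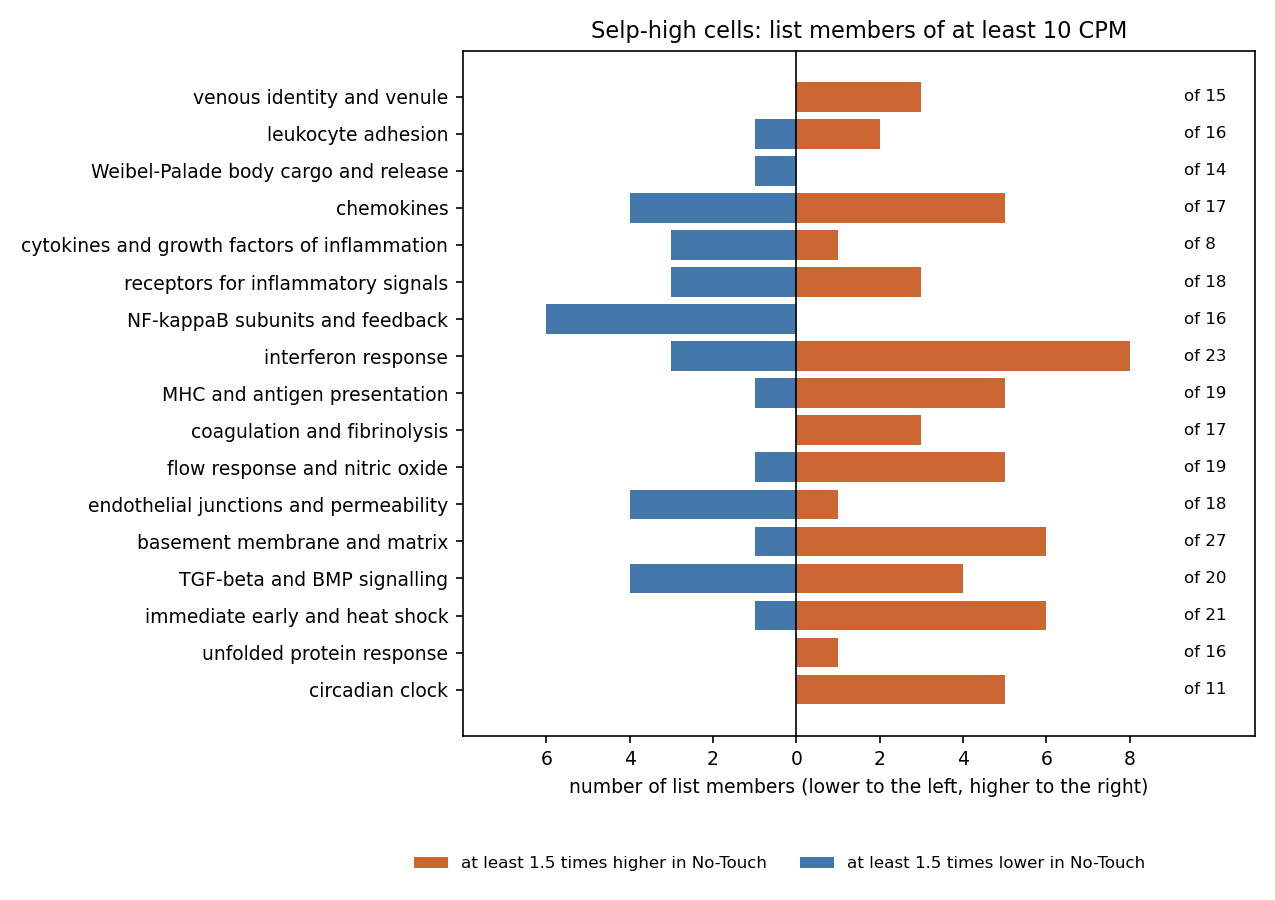
Number of members of 17 gene lists that were at least 1.5 times higher (right) or lower (left) in No-Touch than in conventional Selp-high cells, with the number measured at at least 10 CPM. The NF-kappaB list had 6 of 16 lower and 0 higher, and the interferon list 8 of 23 higher and 3 lower, while over all genes 11.6% were higher and 6.18% lower.

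Genes of the interferon response went in both directions. Of 23 genes measured, 8 were higher in No-Touch cells and 3 lower, where 11.6% and 6.18% of all genes were. Summed over the list, Selp-high cells held 5144 and 6343 CPM. Other blood endothelial cells held 4201 and 7352 CPM, so the sum was higher in the No-Touch library there too. Irgm1, a GTPase against intracellular pathogens, was at 41.8 CPM (36.2 to 48.1) and 127 CPM (116 to 139.6), and Iigp1, another of that family, at 1370.3 CPM (1337 to 1404) and 2418 CPM (2367 to 2470.0). Irgm1 was found in 18.3% and 44.5% of thinned Selp-high cells. In other blood endothelial cells its thinned shares were 17.1% and 49.5%, and in fibroblasts 9.74% and 36.9%. Those of Iigp1 were 84.4% and 93.3% in Selp-high cells, 71.0% and 87.7% in other blood endothelial cells and 46.1% and 73.0% in fibroblasts. Xaf1 was at 27.8 and 83.9 CPM and Bst2, the restriction factor tetherin, at 318 and 509.7 CPM. Ifi27l2a, an interferon-induced gene outside the list, was at 61.5 and 196 CPM. It was found in 17.99% and 43.9% of thinned Selp-high cells (37.9% and 79.4% unthinned) and 48.98% and 74.4% of thinned fibroblasts. The part of free RNA in its values was not tested. The antiviral Rsad2 (viperin, chromosome 12, 26442746 to 26456452) was lower, at 216 CPM (203 to 229.7) and 22.2 CPM (17.6 to 27.8), as were Ifit1, at 165 and 86.7 CPM, and Ifit2, at 52.7 and 24.8 CPM. Rsad2 was found in 17.99% and 4.88% of thinned Selp-high cells (24.8% and 16.97% unthinned) and 9.497% and 11.7% of thinned fibroblasts. Its No-Touch share was thus below that of fibroblasts. Single thinned fibroblasts held up to 61 and 69 Rsad2 UMIs, so their share is no measure of free RNA alone. The part of free RNA in the Rsad2 values was not tested.

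These last genes were high in few cells. Rsad2 reached at least 5 per 10000 UMIs in 22 of 359 conventional cells (6.13%, 3.88 to 9.13) and 1 of 165 No-Touch cells (0.606%, 0.0153 to 3.33). Another 16 and 1 cells lay from 2.5 to under 5, and 270 and 137 had no Rsad2 UMI, so the 22 are the upper end of a range. In them Rsad2 was at 2951 CPM, Ifit1 at 1702, Isg15 at 1462 and the chemokine Cxcl10 at 4216, against 32.8, 61.8, 184 and 465 CPM in the other 337. Sele was at 1086 and 1762 CPM and Selp at 6478 and 7102 CPM. Without these cells in both libraries, Ifit1 turned from a log2 ratio of -0.92 to 0.49, Isg15 from -0.37 to 0.14 and Cxcl10 from 0.04 to 0.63. The list then had 11 higher and 1 lower. The 22 and 337 cells had median depths of 14040.5 and 12536 UMIs, and 1 cell held 24.7% of the conventional Rsad2 UMIs.

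**Figure D5:**
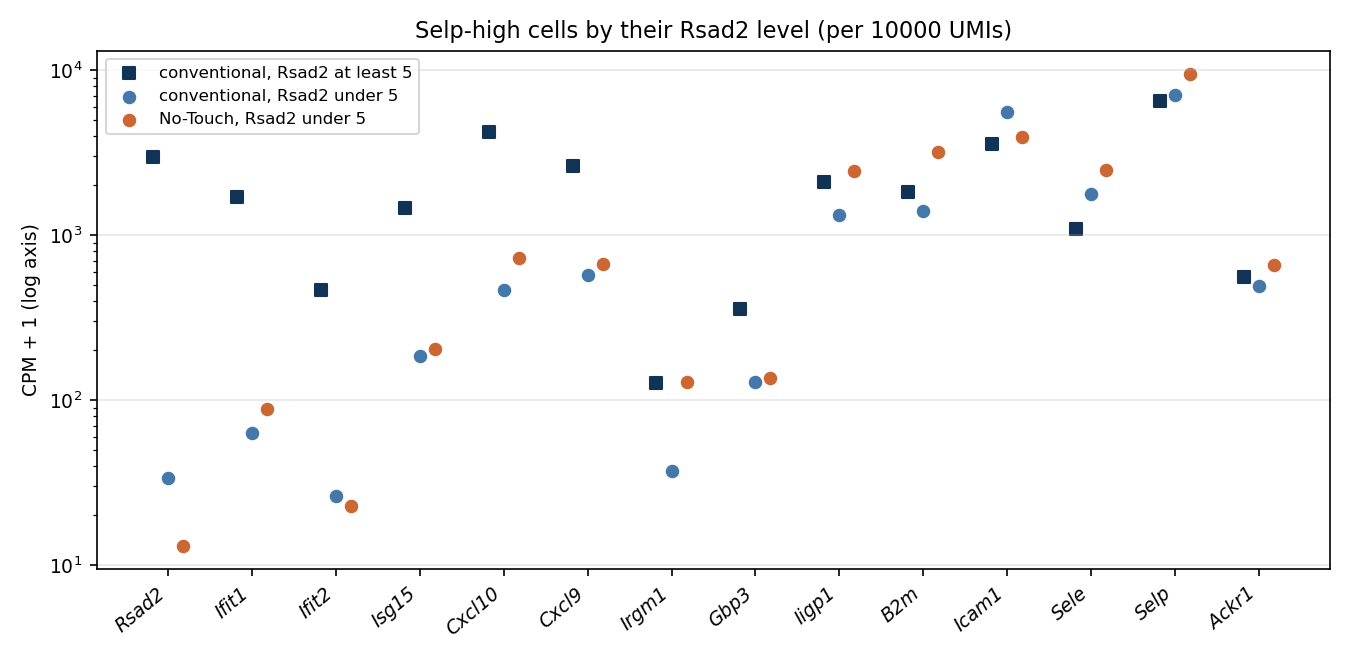
Level (CPM + 1, log axis) of interferon-induced and adhesion genes in conventional Selp-high cells with Rsad2 of at least 5 per 10000 UMIs (22 cells) or less (337 cells) and in No-Touch cells with less (164 cells). Ifit1, Ifit2, Isg15 and Cxcl10 were highest in the 22 cells, which were picked by their Rsad2. Selp was at 6478, 7102 and 9423 CPM in the 3 groups, in this order.

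The bases before the start sites of Rsad2, Ifit1 and Cxcl10 are printed because these genes were high together in the same 22 cells. They are from RefSeq on GRCm38.p6, 250 bases each, at chr12:26456453-26456702 (- strand), chr19:34640639-34640888 (+ strand) and chr5:92348890-92349139 (- strand). Capitals mark the core letters of an interferon-stimulated response element, which are GAAA, any 2 bases and GAAA again, on either strand, and TGANTCA.
Rsad2: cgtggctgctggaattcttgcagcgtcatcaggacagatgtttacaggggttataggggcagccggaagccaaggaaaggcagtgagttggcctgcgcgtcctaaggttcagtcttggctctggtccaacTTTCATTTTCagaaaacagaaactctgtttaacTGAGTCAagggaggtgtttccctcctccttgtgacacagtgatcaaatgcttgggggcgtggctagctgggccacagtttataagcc
Ifit1: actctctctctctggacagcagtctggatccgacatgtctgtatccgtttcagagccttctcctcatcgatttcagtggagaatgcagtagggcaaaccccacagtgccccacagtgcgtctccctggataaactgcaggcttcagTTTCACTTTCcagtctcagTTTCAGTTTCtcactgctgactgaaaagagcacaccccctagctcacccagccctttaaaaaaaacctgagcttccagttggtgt
Cxcl10: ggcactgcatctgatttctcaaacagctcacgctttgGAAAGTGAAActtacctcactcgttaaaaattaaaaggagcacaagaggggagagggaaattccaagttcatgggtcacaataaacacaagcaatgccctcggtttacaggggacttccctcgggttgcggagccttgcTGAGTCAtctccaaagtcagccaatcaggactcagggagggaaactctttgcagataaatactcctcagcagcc
The interferon element's letters begin 120 bases before the start of Rsad2, 104 and 85 before that of Ifit1 and 213 before that of Cxcl10, and 2.98% of the 32851 promoters hold it. Irgm1, higher in No-Touch cells, has 2 matches and Cxcl9 has 0 in the same window, which says only that these letters are not in it.

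Several genes of class I antigen presentation were higher in No-Touch cells, and Cd74 of class II was lower. B2m, the shared light chain of class I, was at 1430.0 CPM (1396 to 1464) and 3172 CPM (3113 to 3231). H2-T23 was at 178 and 435 CPM, the peptide transporter gene Tap2 at 61.7 and 132 CPM and the immunoproteasome gene Psmb9 at 101 and 188 CPM. The class I heavy chain H2-K1 was at 1730.2 and 1930.5 CPM, and reads of such near-identical genes may be split between them. Cd74 was lower, at 1150.4 CPM (1120.2 to 1181) and 576 CPM (551 to 601), and H2-Ab1 was at 250.5 and 204 CPM. Of 19 genes measured, 5 were higher and 1 lower, with a median of 0.16. Over all genes of at least 10 CPM, 11.6% were higher and 6.18% lower. Summed over the list, Selp-high cells held 8942 and 11583 CPM. Other blood endothelial cells held 8956 and 15447 CPM, so the sum was higher in the No-Touch library there too.

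Immediate early genes leaned higher in No-Touch cells. Fos was at 438 CPM (419.8 to 458) and 2041 CPM (1994 to 2089), a ratio of 4.66 (4.43 to 4.89), Zfp36, which destabilises cytokine messengers, at 1367 CPM (1334 to 1401) and 3113 CPM (3055 to 3172), and Junb at 1933 and 2988 CPM. The heat shock genes Hspa1a and Hspa1b were at 233 and 524 CPM and at 227 and 468 CPM, and Hspb1 was lower, at 1196 and 728 CPM. Egr1 and Atf3 were within 1.5 times, at 1139.9 and 1241 CPM and at 1989 and 2325 CPM. Of 21 members, 6 were higher and 1 lower, with a median of 0.22. Over all genes of at least 10 CPM, 11.6% were higher and 6.18% lower, with a median of 0.08. With Selp of at least 20 per 10000, 5 members were higher and 2 lower, with a median of 0.12. Fibroblasts of the same libraries held Fos at 2808 and 4715 CPM, so that it was higher in the No-Touch library there too. It was found in 66.96% and 93.9% of thinned Selp-high cells (88.3% and 100% unthinned) and 96.2% and 98.7% of thinned fibroblasts, and the part of free RNA was not tested.

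Genes of flow sensing were 5 of 19 higher and 1 lower, where 11.6% and 6.18% of all genes were. The flow-induced factors Klf2 and Klf4 were at 1832 CPM (1794 to 1871) and 2325 CPM (2275 to 2376) and at 486 CPM (466 to 506) and 711 CPM (683 to 739.6), and Nos3, the endothelial nitric oxide synthase, at 71.4 and 85.00 CPM. Cav1 and Cav2, the coat proteins of caveolae, were at 235 and 363 CPM and at 63.4 and 114 CPM. Ccn1, a secreted target of the mechanical factor YAP, was at 104 CPM (95.2 to 114) and 342 CPM (323 to 362), while its relative Ccn2 was at 87.7 and 94.1 CPM. Ccn1 was found in 25.7% and 45.1% of thinned Selp-high cells (40.1% and 78.2% unthinned) and 60.3% and 74.4% of thinned fibroblasts. The part of free RNA in the Ccn1 values was not tested. Of 11 mechanical targets, 2 were higher and 0 lower.

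In TGF-beta and BMP signalling, 4 of 20 genes were higher and 4 lower, where 11.6% and 6.18% of all genes were. The BMP targets Id1, Id2 and Id3 and the inhibitor Smad6 were the higher ones, with Id3 at 561 CPM (540.4 to 583) and 1285 CPM (1247 to 1323). The lower ones were ligands or binding proteins, with Inhbb, a subunit of activin, at 90.2 CPM (81.9 to 99.1) and 27.7 CPM (22.4 to 33.8), Bmp4 at 74.3 and 41.1 CPM and Tgfb2 at 12.6 and 5.99 CPM. The receptors Tgfbr2 and Acvrl1 were at 108 and 123 CPM and at 100.4 and 97.5 CPM.

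In the matrix list of 27 measured genes, 6 stood higher and 1 lower, or 3 and 1 under TMM scaling, with Fn1, fibronectin, at 164 and 274 CPM and Postn, periostin, at 48.8 and 109 CPM. Col4a1, the basement membrane collagen, was at 756 and 626 CPM. Fibroblast markers went the same way: 2 of 10 were higher, their sum was 1992 and 2862 CPM, and Postn stood at 637 and 1416 CPM in fibroblasts. Their part in the matrix values was not tested. Among 18 junction genes, Calcrl, the receptor for adrenomedullin, was the higher one, at 284 and 508 CPM, and 4 were lower.

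Coagulation genes had 3 of 17 higher and 0 lower, where 11.6% and 6.18% of all genes were. Entpd1 (CD39), which removes ATP at the surface, was at 272 and 442 CPM and the anticoagulant receptor gene Thbd at 95.2 and 89.3 CPM. Of 12 genes of lipid mediators, 2 were higher and 3 lower, with Slco2a1 at 371 CPM (354 to 388) and 657 CPM (630.3 to 684) and Ptgs2, the inducible cyclooxygenase, at 258 and 139 CPM. Complement had 0 of 10 higher and 2 lower, with C3 at 538 and 332 CPM.

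Depp1, a target of the factor FOXO, was at 1611 CPM (1575 to 1647) and 652 CPM (625 to 679), and the glycolytic regulator Pfkfb3 at 595 and 329 CPM. Tiparp, an ADP-ribosyltransferase, was at 453 and 180.3 CPM, Cdc42ep3, an effector of the GTPase Cdc42, at 371 and 144 CPM, and Cdk2ap2, an inhibitor of the kinase CDK2, at 142 and 61.6 CPM. Of 17 genes of hypoxia and glycolysis, 0 were higher and 3 lower, or 7 lower under TMM scaling. In the unfolded protein response 1 of 16 was higher, with a median of -0.23, and Hspa5, the chaperone BiP, was at 4243 and 2964 CPM.

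Several clock genes were higher in No-Touch cells. Nr1d1 was at 71.4 CPM (63.98 to 79.3) and 133 CPM (121 to 146), Dbp at 5.86 CPM (3.89 to 8.47) and 24.2 CPM (19.4 to 29.98) and Per1 at 45.8 and 72.7 CPM, while Arntl, the activator of the cycle, was at 38.5 and 28.5 CPM. Of 11 measured, 5 were higher and 0 lower, or 3 higher under TMM scaling, with a median of 0.47. The sources used here do not state the hour at which grafts were taken.

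Values of cell cycle genes rested on 1 cell. Of 10 measured, 4 were higher in No-Touch cells, Top2a, Cdk1, Cenpf and Ube2c, and Hist1h2ap, a replication histone, had the largest ratio of all named genes, at 10.5 CPM (7.77 to 13.8) and 104 CPM (93.97 to 116). A single No-Touch barcode of 66832 UMIs held 284 of the 366 Hist1h2ap UMIs, 43 of 50 Top2a, 43 of 43 Cenpf and 53 of 56 Ube2c. It also held 42 Pecam1 UMIs, 0 of Ptprc and 18 of Dcn. Without it the list had 0 higher and 1 lower, and the log2 ratio of Hist1h2ap was 1.12 in place of 3.20.

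Several of the lowest genes in No-Touch Selp-high cells were also lower in No-Touch fibroblasts. Gt(ROSA)26Sor, a noncoding RNA, was at 270.3 CPM (256 to 285) and 23.96 CPM (19.1 to 29.7), and at 234 and 14.05 CPM in fibroblasts. Lars2, a mitochondrial leucyl-tRNA synthetase, was at 494 CPM (474 to 514) and 101 CPM (90.5 to 112), and at 312 and 82.1 CPM in fibroblasts. Neat1, a nuclear RNA of paraspeckles, was at 1325 CPM (1292 to 1358) and 444 CPM (422 to 467), against 1325 and 473 CPM in fibroblasts, while the nuclear RNA Malat1 was at 32425 and 34396 CPM.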

How the data were processed

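UMI counts per gene and barcode were used as deposited, in 1 table per library. Per the submitters' processing notes they were made with Cell Ranger 3.1.0 on mm10, while per the file headers the program was cellranger 6.0.0, and which applies was not settled. The quality limits, 500 genes and 1000 UMIs as minimum and 10% mitochondrial UMIs as maximum, left 10458 of 11899 in the conventional and 11525 of 12450 in the No-Touch library. No doublets were removed: Scrublet's automatic limit called 2.30% and 0 barcodes, so an alternative removed the 8.37% and 9.22% with the highest scores, 15 and 4 of them Selp-high. Counts were summed over the Selp-high cells, 4779179 and 3505898 UMIs, as CPM. Ratios are of CPM + 1, with 95% Clopper-Pearson intervals for shares and exact Poisson or binomial intervals for sums and ratios. The arithmetic was tested on simulated data. Genes were named as the 12 highest and 12 lowest ratios at 100 CPM or more in either library, with sex-linked, predicted and other-lineage genes left out, the 12 highest and 8 lowest against other blood endothelial cells, and leading members of each list. Other members were named for their known role after their values were seen. The members and lists were chosen with earlier results of these data known. Python 3.11.15, numpy 2.4.6, scipy 1.17.1, pandas 2.3.3 and scanpy 1.11.5 were used. Positions of genes were taken from GENCODE M21.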

Additional observations from a re-analysis of the deposited data

Results flagged for a closer look

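Gata6 and Ptgs2 had log2 ratios of opposite sign between the libraries in Selp-high cells and in the other blood endothelial cells, and with 1 library per group these differences were not tested. Gata6, an endothelial transcription factor, had a log2 ratio of -1.19 in Selp-high cells (73.7 and 31.7 CPM in the conventional and No-Touch library) and 1.29 in the other blood endothelial cells (77.1 and 190.2 CPM). Ptgs2, the inducible cyclooxygenase, had -0.89 in Selp-high cells (258 and 139 CPM) and 1.60 in the others (101 and 307 CPM). Blood endothelial cells differed in kind between the libraries. Capillary cells were 16.3% and 8.31% of them, and cells with at least 2 Cytl1 UMIs 1.04% and 15.5%. The part of this make-up in the 2 ratios was not tested.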

How the results depend on the processing

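The share of Selp-high cells among blood endothelial cells, 46.8% (conventional) and 44.2% (No-Touch), followed the limits of the rule. With Selp of at least 20 per 10000 it was 52.7% and 47.2%, and with at least 50 it was 33.2% and 38.6%. With collagen under 0.2% it was 50.9% and 53.0%, and with cells thinned to 5000 UMIs 54.5% and 50.8%. The counts of genes at least 2 times higher and lower in No-Touch cells, 62 and 53, were 39 and 84 under median-of-ratios scaling and 39 and 84 under TMM scaling. They were 712 and 399 with no filter on low values and 142 and 86 at 20 CPM or more. List members at least 1.5 times lower, 47 in all, were 30 at 50 CPM or more. Of 57 genes recomputed, the 31 that were at least 2 times apart kept their direction under each of the 14 alternatives. Alternatives that kept Y-linked cells only, left out cells high in Rsad2 or the cycling cell, or added the cells removed by Prox1 were chosen after seeing the data. No paired analysis was possible because each group is 1 library, and leaving out a replicate was not possible for the same reason. Intervals cover counting error only, and the spread between animals is unknown.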

Other observations

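A few genes known from other cells were present in Selp-high cells at levels that differed between the libraries. Lcn2, an iron-binding protein of neutrophils and inflamed tissue, was at 219.7 CPM (207 to 233) in conventional and 57.6 CPM (49.9 to 66.1) in No-Touch cells, while the neutrophil genes Cxcr2, Ngp and Camp were at 0 in both. Of the 10 neutrophil markers, summing to 343 and 209.6 CPM, 4 were measured, with Lcn2, S100a8 and S100a9 lower in No-Touch cells and Hdc, which makes histamine, higher, at 92.3 CPM (83.9 to 101) and 144 CPM (132 to 157). Hdc stood at 36.2 and 48.1 CPM in other blood endothelial cells and was found in 28.3% and 43.9% of thinned Selp-high cells (45.96% and 66.7% unthinned) and 1.94% and 0.623% of thinned fibroblasts. S100a8, a calcium-binding protein of neutrophils, was at 12.3 and 1.71 CPM. Conventional barcodes classed as neutrophils numbered 456 and No-Touch ones 118. The part of neutrophil or free RNA in the Lcn2, S100a8 and S100a9 values was not tested. Pth was at 208 and 16.3 CPM, and with cells thinned to 5000 UMIs it was found in 59.00% and 9.76% of Selp-high cells and 62.1% and 7.63% of fibroblasts.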
